A study of Mus musculus with 13 samples.

Results

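The adipogenic transcription factors described here are 10 genes whose products turn precursor cells into fat cells and keep fat cells mature: Pparg, Rxra, Cebpa, Cebpb, Cebpd, Klf15, Ebf1, Ebf2, Zfp423 and Bcl6. They were listed by name and not by a cut-off on their measured values, though earlier results of these data were known when the list was made. Each was read from a probe set that the platform annotation assigns to that symbol alone. Where a gene had several such probe sets, as Ebf2 had with 2, the one with the highest mean over all arrays was taken. All 10 were measured, among 18820 genes in all. Values are log2 expression values, so that equal differences are equal fold changes of the signal, and levels are compared between groups for 1 gene at a time and never between genes.

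RNA came from the epididymal white fat pad, a visceral depot, of male mice aged 18 weeks, and was read on 13 Affymetrix arrays. Mice ate a high-fat diet (60% of energy from fat) or a low-fat chow (13%) for 12 weeks, starting when they were 6 weeks old. The knockout line, B6.129P2-P2rx7tm1Gab/J, lacks P2X7, an ion channel opened by extracellular ATP, in the whole body and had 7 generations of backcrossing to B6. The wild-type line was C57/BL6, and nothing in the labels says that the lines were littermates. The groups were knockout mice fed the high-fat diet (4 arrays) or chow (3), and wild-type mice fed the high-fat diet (3) or chow (3). The labels do not say that each array held RNA of 1 animal, and p-values therefore reflect only how far these samples spread.

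Fat cell formation runs through a relay of such factors. C/EBPβ and C/EBPδ, the products of Cebpb and Cebpd, come early after a hormonal stimulus and switch on PPARγ and C/EBPα, which then maintain each other and drive the genes of lipid storage. PPARγ, the product of Pparg, binds DNA together with RXRα, the product of Rxra. EBF1, EBF2 and ZFP423 act in committed precursors and in mature fat cells, KLF15 is a zinc finger factor of late differentiation, and BCL6 is a zinc finger repressor best known from germinal centre B cells and also active in macrophages and fat cells.

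Promoter windows of 4 of these genes are shown because they carry the sequence motifs searched for: 3 copies of the E-box CACGTG in Klf15 and 1 in Bcl6, the genes with the largest fall and the largest rise of the 10 with diet in wild-type mice, and C/EBP-type motifs in Cebpa and Pparg, which C/EBP proteins are known to regulate. Each window runs 5′ to 3′ from 250 bases before to 50 bases after a transcription start, from RefSeq on GRCm38.p6, with the motif in capitals.
Klf15, chr6:90462326-90462625, plus strand, CACGTG in capitals: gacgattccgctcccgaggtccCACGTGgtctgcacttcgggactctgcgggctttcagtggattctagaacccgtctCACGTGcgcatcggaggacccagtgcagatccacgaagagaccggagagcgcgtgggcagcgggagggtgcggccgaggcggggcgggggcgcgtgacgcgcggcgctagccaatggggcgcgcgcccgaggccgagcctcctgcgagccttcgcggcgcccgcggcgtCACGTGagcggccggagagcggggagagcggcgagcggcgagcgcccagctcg
Bcl6, chr16:23988803-23989102, minus strand, CACGTG in capitals: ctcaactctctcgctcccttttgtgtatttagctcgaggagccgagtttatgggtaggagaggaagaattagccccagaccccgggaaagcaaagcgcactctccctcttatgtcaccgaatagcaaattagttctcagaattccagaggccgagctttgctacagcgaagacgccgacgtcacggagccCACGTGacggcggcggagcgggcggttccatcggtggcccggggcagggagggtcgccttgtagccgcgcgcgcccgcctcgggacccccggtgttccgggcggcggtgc
Cebpa, chr7:35119043-35119342, plus strand, TTGCGC in capitals: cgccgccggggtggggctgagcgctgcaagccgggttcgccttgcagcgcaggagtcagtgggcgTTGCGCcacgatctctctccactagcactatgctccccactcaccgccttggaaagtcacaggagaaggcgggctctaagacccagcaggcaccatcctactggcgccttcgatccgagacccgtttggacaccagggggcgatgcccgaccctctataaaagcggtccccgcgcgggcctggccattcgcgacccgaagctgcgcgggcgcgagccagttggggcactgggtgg
Pparg, the third annotated start, chr6:115421816-115422115, plus strand, TTGCNNAA in capitals: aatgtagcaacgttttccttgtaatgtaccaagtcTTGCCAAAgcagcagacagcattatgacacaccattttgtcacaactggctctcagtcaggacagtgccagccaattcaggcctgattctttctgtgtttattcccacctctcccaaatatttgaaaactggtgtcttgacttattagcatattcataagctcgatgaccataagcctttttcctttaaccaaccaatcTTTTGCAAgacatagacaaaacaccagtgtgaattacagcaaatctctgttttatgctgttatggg

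The table of promoter windows held 8 of the 10 genes, in 14 windows, with Cebpd and Ebf2 not among them. Matches were sought on both strands, and TTGCNNAA and TTGCGC share their opening letters, so that 1 place can match both. CACGTG, the E-box letters that clock and other basic helix-loop-helix factors are known to bind, occurred in 7.15% of all 32817 windows of the same length. In the Klf15 window it lay at -228 to -223, -172 to -167 and -3 to 3 from the start, and in the first Bcl6 window at -60 to -55. TTGCNNAA was found in 10.8% of all windows and stood at -215 to -208 and -16 to -9 in the Pparg window, and the first Zfp423 window also held 2 matches, at -131 to -124 and 23 to 30. TTGCGC was found in 6.48% of all windows and stood at -185 to -180 in the Cebpa window and at -177 to -172 in that of the second Ebf1 start. TTCNNNGAA, letters of a kind bound by BCL6 itself and by STAT factors, occurred in 8.29% of all windows, 1 time in the first Bcl6 window and 3 times in the second. AGGTCA, a nuclear receptor site, was present in 16.3% of windows, including those of the first and second Pparg starts and of the second Zfp423 and Rxra starts. An EBF motif, TCCC and GGGA with 2 bases between them, was present in 0.905% of windows and in no window of these genes. A match is only a stretch of letters, and none of the arrays measured binding.

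The arrays were alike in scale, with medians over all 35556 probe sets from 5.72 to 5.88. Adipocyte markers, among them Adipoq and Plin1, averaged 11.44 to 12.35 per array over 10 measured genes, against a median of 6.66 over all genes. Markers of the neighbouring epididymis averaged 3.72 to 4.24 over 6 genes. Macrophage markers averaged 10.48 to 10.70 in knockout mice fed the high-fat diet and 9.26 to 9.58 on chow, and 10.48 to 10.85 in wild-type mice fed the high-fat diet and 9.02 to 9.39 on chow. Liver markers, 15 genes known for high expression in liver, averaged 5.54 to 6.79 in knockout mice fed the high-fat diet and 6.21 to 6.31 on chow, and 5.77 to 7.63 in wild-type mice fed the high-fat diet and 7.49 to 8.50 on chow. The wild-type chow arrays thus stood apart from the knockout chow arrays in liver markers, and results that set these groups against each other are given below with that score as a covariate. Cyp2e1, 1 of the 15, was bright in this tissue, with means of 12.79 in knockout and 12.86 in wild-type mice on chow, and without it the score was 5.74 to 5.85 in knockout and 7.11 to 8.20 in wild-type mice on chow. P2rx7, the targeted gene, read 8.90, 9.14, 9.14 and 9.07 in knockout mice fed the high-fat diet against 9.54, 9.36 and 9.69 in wild-type mice on that diet. On chow it read 8.23, 7.90 and 8.04 in knockout mice, against 8.32, 7.91 and 8.41 in wild-type mice. No source used here places this probe set within or outside the disrupted stretch, and its level therefore cannot check the genotype labels.

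**Figure D1:**
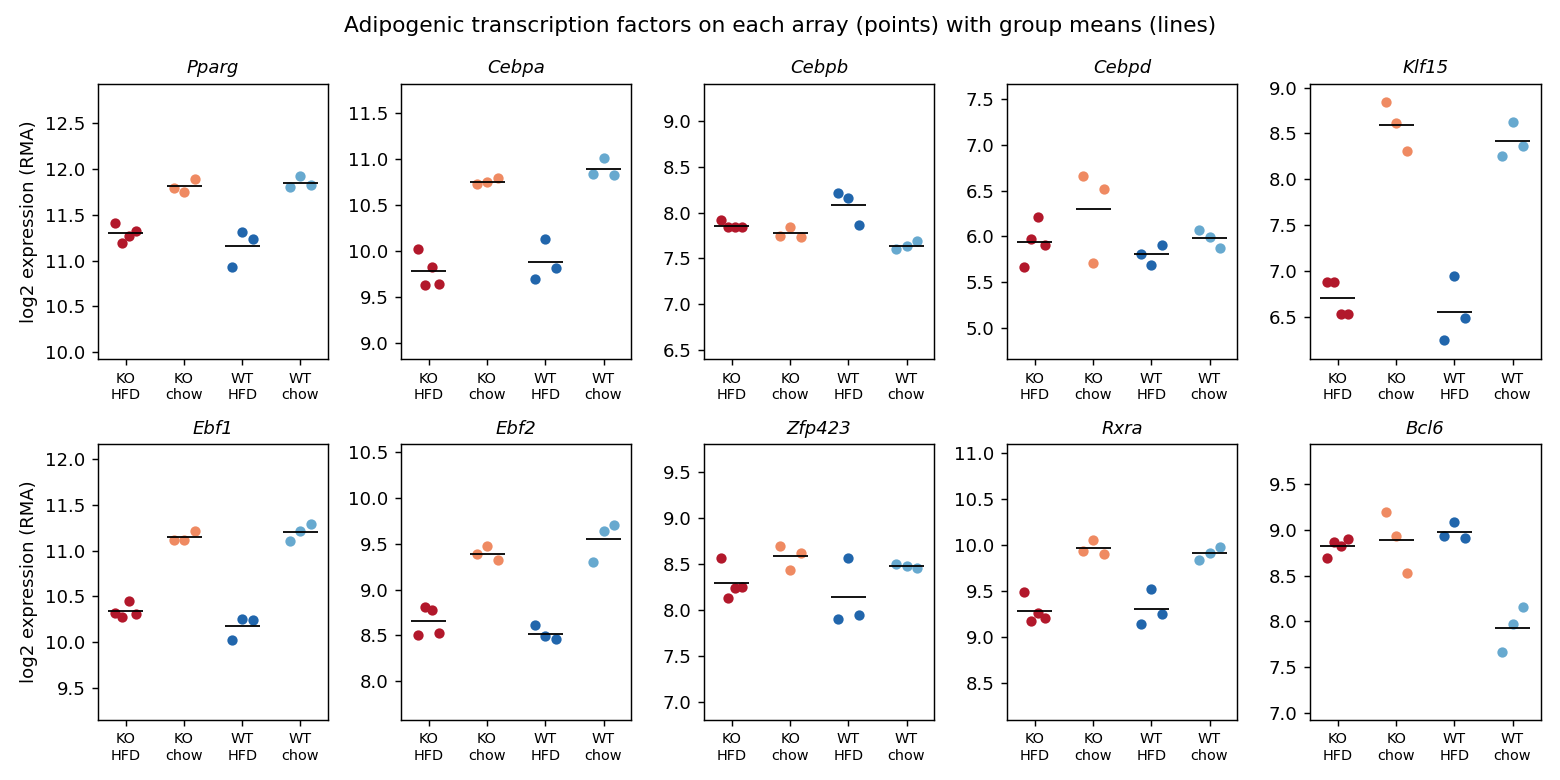
Log2 expression (vertical axis) of the 10 genes on each of the 13 arrays, in a panel per gene with the groups along the horizontal axis. Points are arrays and lines are group means. Klf15 lies between 6.25 and 6.94 on all high-fat arrays and between 8.26 and 8.84 on all chow arrays, while Bcl6 is low only in wild-type mice on chow, at 7.66 to 8.16.

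Of the 10 genes, 6 were lower on high-fat diet than on chow in both genotypes: Pparg, Rxra, Cebpa, Klf15, Ebf1 and Ebf2. Klf15 had the largest change of the 10 in both genotypes, 3.68-fold lower in knockout and 3.62-fold lower in wild-type mice. Cebpb and Bcl6 rose in wild-type mice, and neither passed the test in knockout mice. Cebpd and Zfp423 passed in neither genotype. In knockout mice 0 genes rose, 6 fell and 4 did not pass, with a median change of -0.60 against -0.06 over all genes. In wild-type mice 2 rose, 6 fell and 2 did not pass, with a median of -0.65 against -0.03 over all genes. The background was high: limma called 34.2% of all genes for diet in knockout mice (14.5% higher, 19.7% lower) and 35.8% in wild-type mice (17.7% higher, 18.1% lower). All genes called lower in both genotypes numbered 2545, out of 3708 in knockout and 3409 in wild-type mice. In bulk tissue, fewer cells of a type and less RNA per cell cannot be told apart, and this holds for every change below.

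**Figure D2:**
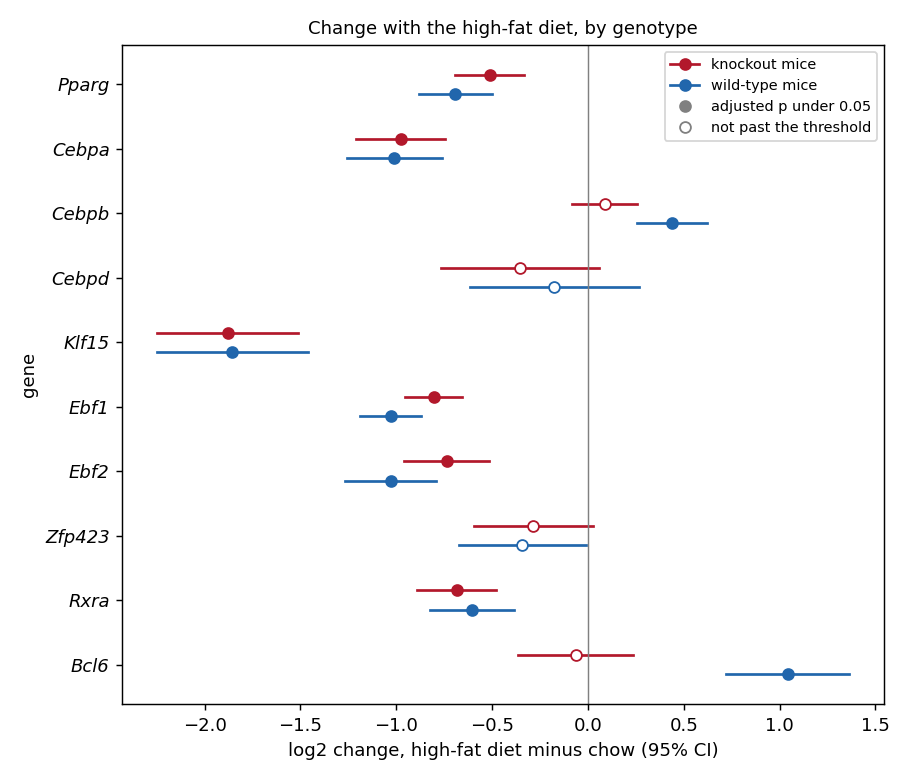
Log2 change on high-fat diet relative to chow (horizontal axis) for each of the 10 genes, in knockout and in wild-type mice. Points are limma estimates, bars are 95% confidence intervals and filled points had an adjusted p under 0.05. Klf15 lies farthest to the left, at -1.88 in knockout and -1.86 in wild-type mice, and Bcl6 is at -0.06 in knockout but at 1.04 in wild-type mice.

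Pparg encodes the nuclear receptor without which fat cells do not form, and the drug target of the thiazolidinediones. Its log2 values were 11.41, 11.19, 11.26 and 11.32 in knockout mice fed the high-fat diet, against 11.79, 11.75 and 11.89 in knockout mice on chow. The wild-type values were 10.93, 11.31 and 11.23 on high-fat diet, against 11.80, 11.92 and 11.83 on chow. Every high-fat array was below every chow array in both genotypes. Pparg fell by 0.51 ± 0.08 on the log2 scale in knockout mice (SE, 1.43-fold, limma adjusted p = 0.0003). Wild-type mice showed a fall of 0.69 ± 0.09 (1.62-fold, adjusted p = 3.63e-05). The probe set was assigned by gene symbol and not by transcript, so the general and the fat-cell form of the protein were not separated.

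Rxra, the partner receptor, read 9.49, 9.17, 9.26 and 9.21 in knockout mice fed the high-fat diet, against 9.94, 10.06 and 9.91 on chow. Wild-type mice had 9.14, 9.53 and 9.25 on high-fat diet, against 9.84, 9.91 and 9.98 on chow. The diets did not overlap in either genotype. Rxra fell by 0.69 ± 0.09 in knockout mice (1.61-fold, limma adjusted p = 8.86e-05) and by 0.61 ± 0.10 in wild-type mice (1.52-fold, adjusted p = 0.000355). Each array's departure from the gene's own mean was more alike for Pparg and Rxra than for any other pair of the 10 genes, with a root mean square log2 difference of 0.11 over the 13 arrays. That is a description of these arrays, which share diet, tissue and normalisation.

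Cebpa encodes C/EBPα, which sustains Pparg and gives fat cells their response to insulin. It read 10.02, 9.63, 9.82 and 9.64 in knockout mice fed the high-fat diet, against 10.73, 10.75 and 10.79 on chow. Wild-type arrays gave 9.70, 10.13 and 9.81 on high-fat diet, against 10.83, 11.01 and 10.82 on chow. The highest high-fat array lay well below the lowest chow array in each genotype. Cebpa fell by 0.98 ± 0.11 in knockout mice (1.97-fold, limma adjusted p = 1.27e-05) and by 1.01 ± 0.12 in wild-type mice (2.01-fold, adjusted p = 1.35e-05).

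Cebpb encodes C/EBPβ, an early adipogenic factor that macrophages and other activated cells also use. It read 7.92, 7.84, 7.84 and 7.84 in knockout mice fed the high-fat diet, against 7.75, 7.84 and 7.73 on chow, and the groups touched. Among wild-type mice the values were 8.21, 8.16 and 7.86 on high-fat diet, against 7.60, 7.63 and 7.69 on chow, without overlap. Cebpb rose in wild-type mice by 0.44 ± 0.08 (1.35-fold, limma adjusted p = 0.00109), short of a 1.5-fold change. In knockout mice the change was 0.09 ± 0.08 with a 95% interval of -0.08 to 0.26 (adjusted p = 0.443). Macrophage markers were higher on high-fat diet in the same arrays, 12 of 14 called higher in knockout and 12 of 14 in wild-type mice, with medians of 1.00 in knockout and 1.26 in wild-type mice. Of the other 2, Cd163 was lower by 1.07 ± 0.17 in knockout (limma adjusted p = 0.000262) and by 0.90 ± 0.18 in wild-type mice (adjusted p = 0.00152). Mertk was -0.31 ± 0.09 in knockout (adjusted p = 0.0203) and -0.13 ± 0.10 in wild-type mice (adjusted p = 0.358). The part of macrophages in the Cebpb values was not tested.

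Cebpd, whose product C/EBPδ acts beside C/EBPβ, was the most variable of the 10 within groups. Its pooled standard deviation was 0.285, larger than that of 95.2% of all genes. It read 5.67, 5.97, 6.21 and 5.91 in knockout mice fed the high-fat diet, against 6.66, 5.71 and 6.52 on chow. Wild-type mice had 5.81, 5.69 and 5.91 on high-fat diet, against 6.07, 6.00 and 5.87 on chow. Groups overlapped in both genotypes, and the group means were below the median over all genes of 6.66. The change was -0.36 ± 0.19 in knockout mice (limma adjusted p = 0.175) and -0.18 ± 0.20 in wild-type mice (adjusted p = 0.558). Without knockout chow replicate 2, the low array of its group, the change in knockout mice was -0.65 with an adjusted p of 0.00327.

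Klf15 encodes a Krüppel-like factor that promotes late differentiation, responds to glucocorticoids and is known to regulate the glucose transporter gene Slc2a4 in fat cells. It read 6.89, 6.88, 6.53 and 6.53 in knockout mice fed the high-fat diet, against 8.84, 8.61 and 8.31 on chow. The wild-type values were 6.25, 6.94 and 6.49 on high-fat diet, against 8.26, 8.63 and 8.36 on chow. More than 1 log2 unit separated the diets in each genotype. Klf15 fell by 1.88 ± 0.17 in knockout mice (3.68-fold, limma adjusted p = 2.33e-06), the 44th largest of 11640 negative changes among all genes. The fall in wild-type mice was 1.86 ± 0.18 (3.62-fold, adjusted p = 3.56e-06), the 69th largest of 10493 negative changes.

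Ebf1 encodes early B cell factor 1, needed for B cells and for fat cell differentiation alike. It read 10.32, 10.28, 10.45 and 10.31 in knockout mice fed the high-fat diet, against 11.12, 11.11 and 11.22 on chow. Wild-type arrays gave 10.02, 10.25 and 10.25 on high-fat diet, against 11.11, 11.21 and 11.29 on chow. The diets were far apart and the arrays of a group close together, with the smallest pooled standard deviation of the 10 genes, 0.0925. Ebf1 fell by 0.81 ± 0.07 in knockout mice (1.75-fold, limma adjusted p = 1.62e-06) and by 1.03 ± 0.07 in wild-type mice (2.04-fold, adjusted p = 2.85e-07). Markers of B cells, a second source of Ebf1, averaged 5.35 to 6.83 in knockout mice fed the high-fat diet and 5.15 to 5.81 on chow, and 5.25 to 5.60 in wild-type mice fed the high-fat diet and 5.45 to 5.77 on chow. None of the 7 measured B cell markers was called lower in either genotype, and 1, Cd22, was called higher in both. The median change of the list was 0.19 in knockout and -0.37 in wild-type mice. The part of B cells in the Ebf1 values was not tested.

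Ebf2 encodes a relative of EBF1 that marks committed precursors and, with PPARγ, selects the genes of brown and beige fat cells. It read 8.51, 8.82, 8.77 and 8.52 in knockout mice fed the high-fat diet, against 9.38, 9.47 and 9.32 on chow. Among wild-type mice the values were 8.61, 8.50 and 8.46 on high-fat diet, against 9.31, 9.64 and 9.70 on chow. The diets did not overlap. Ebf2 fell by 0.74 ± 0.10 in knockout mice (1.67-fold, limma adjusted p = 9.59e-05) and by 1.03 ± 0.11 in wild-type mice (2.04-fold, adjusted p = 7.61e-06). A second Ebf2 probe set, dimmer with a mean of 4.63, gave -0.17 ± 0.12 in knockout mice (adjusted p = 0.367) and -0.30 ± 0.13 in wild-type mice (adjusted p = 0.122), so the call rests on the brighter probe set.

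Zfp423 encodes a zinc finger protein that commits precursors to the fat lineage and keeps white fat cells from turning thermogenic. It read 8.57, 8.14, 8.24 and 8.25 in knockout mice fed the high-fat diet, against 8.70, 8.43 and 8.62 on chow. Wild-type mice had 7.91, 8.56 and 7.95 on high-fat diet, against 8.51, 8.48 and 8.46 on chow. In each genotype 1 high-fat array, replicate 1 of the knockout and replicate 2 of the wild-type mice, reached into the chow values. The change was -0.29 ± 0.14 in knockout mice (limma adjusted p = 0.148) and -0.34 ± 0.15 in wild-type mice (adjusted p = 0.102). Without wild-type high-fat replicate 2 it was -0.55 in wild-type mice (adjusted p = 0.00179), and the smaller spread gave an adjusted p of 0.0335 in knockout mice.

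Bcl6 read 8.69, 8.87, 8.82 and 8.89 in knockout mice fed the high-fat diet, against 9.19, 8.93 and 8.53 on chow. The wild-type values were 8.93, 9.08 and 8.91 on high-fat diet, against 7.66, 7.97 and 8.16 on chow. The wild-type chow arrays were below all other arrays, and the knockout groups overlapped. Bcl6 rose in wild-type mice by 1.04 ± 0.15 (2.06-fold, limma adjusted p = 9.44e-05). In knockout mice its change was -0.06 ± 0.14 with a 95% interval of -0.37 to 0.24 (adjusted p = 0.761). T cell markers, from a cell type in which BCL6 acts, averaged 5.98 to 6.89 in knockout mice fed the high-fat diet and 5.54 to 6.13 on chow, and 5.87 to 6.55 in wild-type mice fed the high-fat diet and 5.46 to 5.59 on chow. Of the 7 measured, 1 was called higher and 0 lower in each genotype. That 1 was Il7r, higher by 3.31 ± 0.25 in knockout mice (limma adjusted p = 6.85e-07) and by 4.22 ± 0.27 in wild-type mice (adjusted p = 1.22e-07). The medians of the list were -0.03 in knockout and 0.04 in wild-type mice, so the higher averages rest largely on Il7r. The part of these cells in the Bcl6 values was not tested.

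Counted by overlap alone, 6 of the 10 genes, those that fell in both genotypes, had every high-fat array below every chow array in knockout mice. Of all genes 25.6% did so. In wild-type mice 6 genes had no overlap downward, against 22.5% of all genes, and Cebpb and Bcl6 had none upward, against 20.8%. The 6 falls passed the test without each array in turn, and only Pparg in knockout mice missed a 1.5-fold change. The comparisons in the 2 genotypes use different arrays.

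The adipocyte markers also fell with diet. Of 10 measured, 8 were called lower and 1 higher in knockout mice (median -0.51), and 9 lower and 1 higher in wild-type mice (median -0.59). Their mean per array was 11.62 to 11.89 in knockout mice fed the high-fat diet and 12.29 to 12.35 on chow, and 11.44 to 11.86 in wild-type mice fed the high-fat diet and 12.15 to 12.33 on chow. Each transcription factor was therefore also expressed as its log2 value minus the adipocyte marker mean of the same array, a measure chosen after the values were seen and given without a test. The markers Adipoq, Plin1, Cidec, Fabp4, Lipe, Pnpla2 and Aqp7 are also counted below as PPARγ targets, and Lep and Slc2a4 as C/EBP targets. This reference is thus not independent of the factors set against it. Slc2a4 alone fell by 2.25 in knockout and by 2.31 in wild-type mice, far beyond the marker medians. On that measure Pparg differed between the diets by 0.07 in knockout and -0.04 in wild-type mice, and Rxra by -0.10 in knockout and 0.05 in wild-type mice, with overlapping groups throughout. Ebf2 differed by -0.15 in knockout and -0.37 in wild-type mice, again with overlap.

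The remaining falls stayed without overlap on this measure, though in wild-type mice that of Ebf1 was about the size of that of Ebf2. Klf15 remained lower on high-fat diet by 1.29 in knockout and 1.20 in wild-type mice, with all high-fat arrays below all chow arrays. Cebpa stood at -0.39 in knockout and -0.35 in wild-type mice, and Ebf1 at -0.22 in knockout and -0.37 in wild-type mice, also without overlap. Zfp423 lay above the chow arrays on this measure, by 0.30 in knockout and 0.31 in wild-type mice, and so did Cebpb, by 0.67 in knockout and 1.09 in wild-type mice. Bcl6 differed by 0.52 with overlap in knockout mice and by 1.70 without overlap in wild-type mice. Cebpd overlapped in both genotypes, at 0.23 in knockout and 0.48 in wild-type mice.

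**Figure D3:**
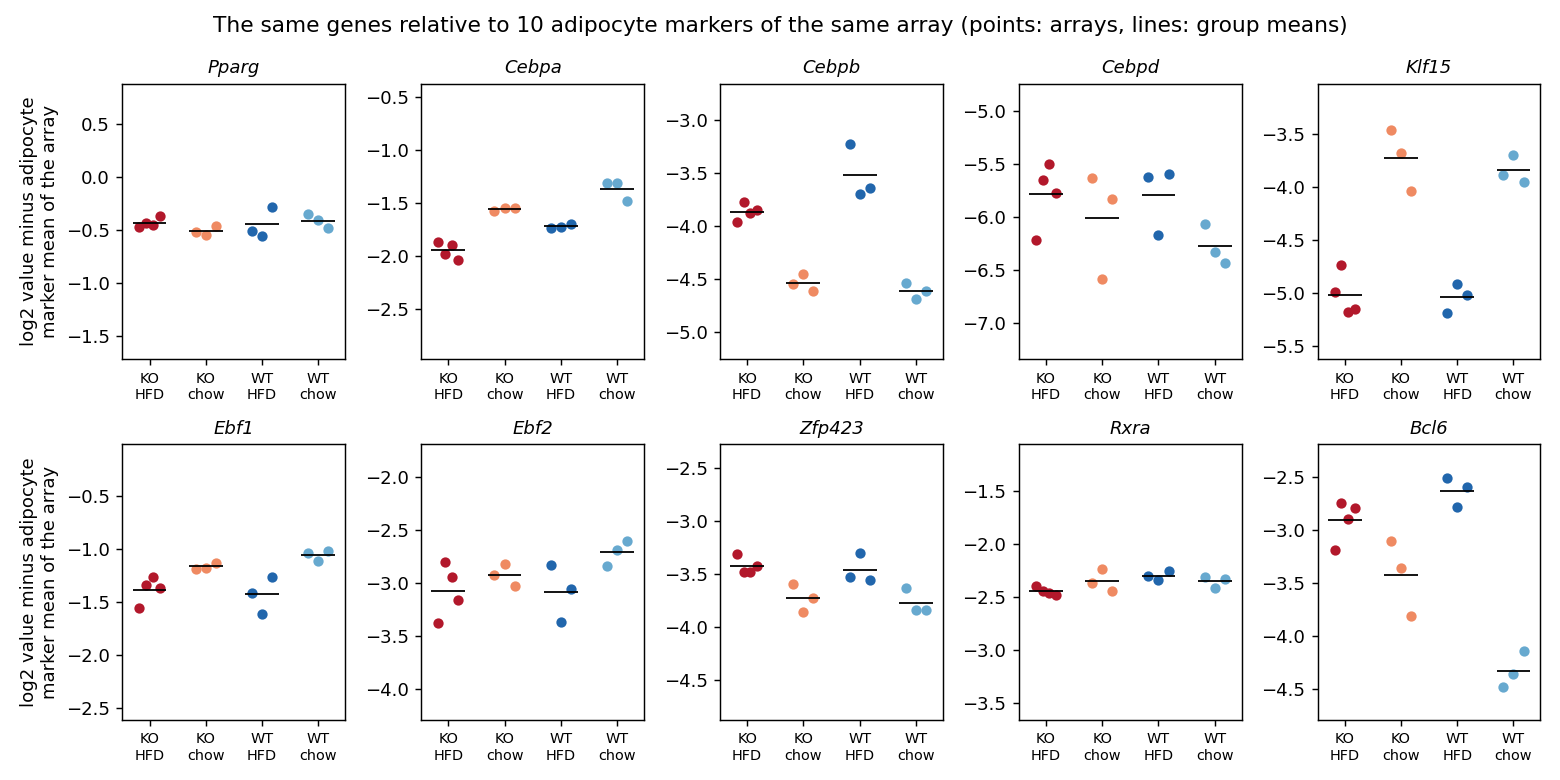
Log2 value of each of the 10 genes minus the mean of 10 adipocyte markers on the same array (vertical axis), with the groups along the horizontal axis. Points are arrays and lines are group means. Pparg and Rxra overlap between the diets, Klf15 stays 1.29 lower on high-fat diet in knockout and 1.20 lower in wild-type mice, and Zfp423 and Cebpb lie above their chow values.

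Adipocyte progenitor markers, from the cells in which EBF2 and ZFP423 also act, went both ways. Of 12 measured, 4 were higher and 4 lower in knockout mice, and 3 higher and 5 lower in wild-type mice. Their mean per array was 9.41 to 9.53 in knockout mice fed the high-fat diet and 9.45 to 9.48 on chow, and 9.33 to 9.54 in wild-type mice fed the high-fat diet and 9.45 to 9.59 on chow. Lum, a matrix gene, rose by 1.70 ± 0.12 in knockout mice (limma adjusted p = 2.79e-07) and by 1.47 ± 0.13 in wild-type mice (adjusted p = 1.03e-06). Dlk1, a preadipocyte surface protein that holds back differentiation, fell by 0.53 ± 0.11 in knockout (adjusted p = 0.00158) and by 0.61 ± 0.11 in wild-type mice (adjusted p = 0.00076). Markers of other cells that fat holds were counted in the same arrays, where 19.7% of all genes were lower in knockout and 18.1% in wild-type mice. In mesothelium 8 of 8 markers were lower in knockout and 6 of 8 in wild-type mice, in endothelium 2 of 9 in knockout and 6 of 9 in wild-type mice, and in pericytes and smooth muscle 2 of 9, with 1 higher, in knockout and 7 of 9 in wild-type mice. Neutrophil markers had 2 of 8 higher and 1 lower in each genotype. Liver markers, counted in the same way, had 1 of 15 higher and 1 lower in knockout mice, with a median of -0.25. In wild-type mice 9 of 15 were lower and 0 higher, with a median of -1.47. The wild-type chow arrays, high in these markers, are the reference of every diet change in wild-type mice. What these cells add to the 10 genes was not tested.

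Genes that work with the 10 factors were followed in lists by role. For this list and those that follow, the shares over all genes were 14.5% higher and 19.7% lower in knockout mice. In wild-type mice they were 17.7% higher and 18.1% lower. Of 28 other promoters of adipogenesis, 2 rose, 13 fell and 13 did not pass in knockout mice, and 2 rose, 17 fell and 9 did not pass in wild-type mice, with medians of -0.20 in knockout and -0.22 in wild-type mice. The members that fell included Nfia, a nuclear factor that works with EBF2 in brown fat, by 0.70 ± 0.06 in knockout mice (limma adjusted p = 1.67e-06) and by 0.98 ± 0.06 in wild-type mice (adjusted p = 1.53e-07). Klf9, which activates Pparg, fell by 0.64 ± 0.08 in knockout (adjusted p = 4.6e-05) and by 0.76 ± 0.09 in wild-type mice (adjusted p = 1.46e-05), and the coactivator gene Ncoa1 by 0.38 ± 0.06 in knockout (adjusted p = 0.000408) and by 0.55 ± 0.07 in wild-type mice (adjusted p = 2.87e-05). Egr2, also called Krox20, an early inducer of Cebpb that is abundant in macrophages too, rose by 2.35 ± 0.22 in knockout mice (adjusted p = 3.59e-06) and by 3.05 ± 0.24 in wild-type mice (adjusted p = 5.29e-07). The other gene that rose was the coactivator Ncoa3, named after its values were seen.

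Inhibitors of adipogenesis were divided between genes that fell and genes that did not pass. Of 26 measured, 1 (Zfp521, named after its values were seen) rose, 11 fell and 14 did not pass in knockout mice, and 0 rose, 13 fell and 13 did not pass in wild-type mice, with medians of -0.23 in knockout and -0.33 in wild-type mice. Beside Dlk1, Tcf7l2, a Wnt pathway factor, fell by 0.65 ± 0.10 in knockout mice (limma adjusted p = 0.000217) and by 0.90 ± 0.11 in wild-type mice (adjusted p = 1.85e-05). Nr2f2, the orphan receptor COUP-TFII, fell by 0.34 ± 0.12 in knockout (adjusted p = 0.0355) and by 0.85 ± 0.12 in wild-type mice (adjusted p = 0.000115). The change of Foxc2 was -0.19 ± 0.12 in knockout mice (adjusted p = 0.263) and -0.76 ± 0.13 in wild-type mice (adjusted p = 0.000447). Its interaction of diet and genotype had an adjusted p of 0.371.

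Known PPARγ target genes of fat cells were called lower, as Pparg was, more often than not, where 19.7% of all genes were lower in knockout and 18.1% in wild-type mice. Several of them, Adipoq and Plin1 among them, are adipocyte markers already counted above, so the 2 lists are not separate. Of 26 measured, 2 rose, 14 fell and 10 did not pass in knockout mice, and 2 rose, 17 fell and 7 did not pass in wild-type mice, with medians of -0.37 in knockout and -0.46 in wild-type mice. Pck1, which makes glycerol precursors for triglyceride, fell by 2.42 ± 0.14 in knockout mice (limma adjusted p = 1.06e-07) and by 2.39 ± 0.15 in wild-type mice (adjusted p = 1.01e-07). The lipid droplet genes Plin1 and Plin4 fell by 0.66 and 0.72 in knockout mice and by 0.73 and 1.10 in wild-type mice. Scd1, a fatty acid desaturase, fell by 0.20 ± 0.04 in knockout and by 0.42 ± 0.05 in wild-type mice. The 2 that rose, named after their values were seen, were Pdk4, by 1.14 ± 0.21 in knockout and 1.41 ± 0.22 in wild-type mice, and Fabp5, by 1.03 ± 0.14 in knockout and 1.15 ± 0.15 in wild-type mice; Pdk4 blocks pyruvate oxidation and Fabp5 is a fatty acid carrier also found in macrophages.

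Of 10 measured C/EBP target genes, 4 rose and 4 fell in knockout mice and 3 rose and 4 fell in wild-type mice, with a median of 0.03 in each. Slc2a4, the gene of the insulin-regulated glucose transporter GLUT4 and also a KLF15 target, fell by 2.25 ± 0.20 in knockout mice (limma adjusted p = 1.93e-06) and by 2.31 ± 0.21 in wild-type mice (adjusted p = 2.01e-06). Irs1, the insulin receptor substrate, fell by 1.46 ± 0.11 in knockout and by 1.58 ± 0.12 in wild-type mice, and the adipokine gene Retn by 1.07 ± 0.11 in knockout and by 1.23 ± 0.12 in wild-type mice. Saa3, an acute phase gene of fat cells and macrophages, rose by 2.28 ± 0.27 in knockout mice (adjusted p = 2.3e-05) and by 2.74 ± 0.29 in wild-type mice (adjusted p = 6.48e-06). Of the C/EBP family outside the 10 genes 2 members were measured, and Cebpe fell by 0.64 ± 0.13 in knockout and 0.69 ± 0.14 in wild-type mice.

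Among 13 measured partner receptors of RXRα, Pparg included, 7 fell and 0 rose in knockout mice, and 6 fell and 1 rose in wild-type mice, with medians of -0.33 in knockout and -0.12 in wild-type mice. Ppara, the receptor of fatty acid oxidation, fell by 0.86 ± 0.18 in knockout mice (limma adjusted p = 0.00191) and by 1.12 ± 0.19 in wild-type mice (adjusted p = 0.000383). The thyroid hormone receptor gene Thrb fell by 0.93 ± 0.18 in knockout and by 1.03 ± 0.20 in wild-type mice, and the retinoic acid receptor gene Rarg by 0.67 ± 0.07 in knockout and by 0.78 ± 0.07 in wild-type mice. Over all genes 19.7% fell in knockout and 18.1% in wild-type mice.

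**Figure D4:**
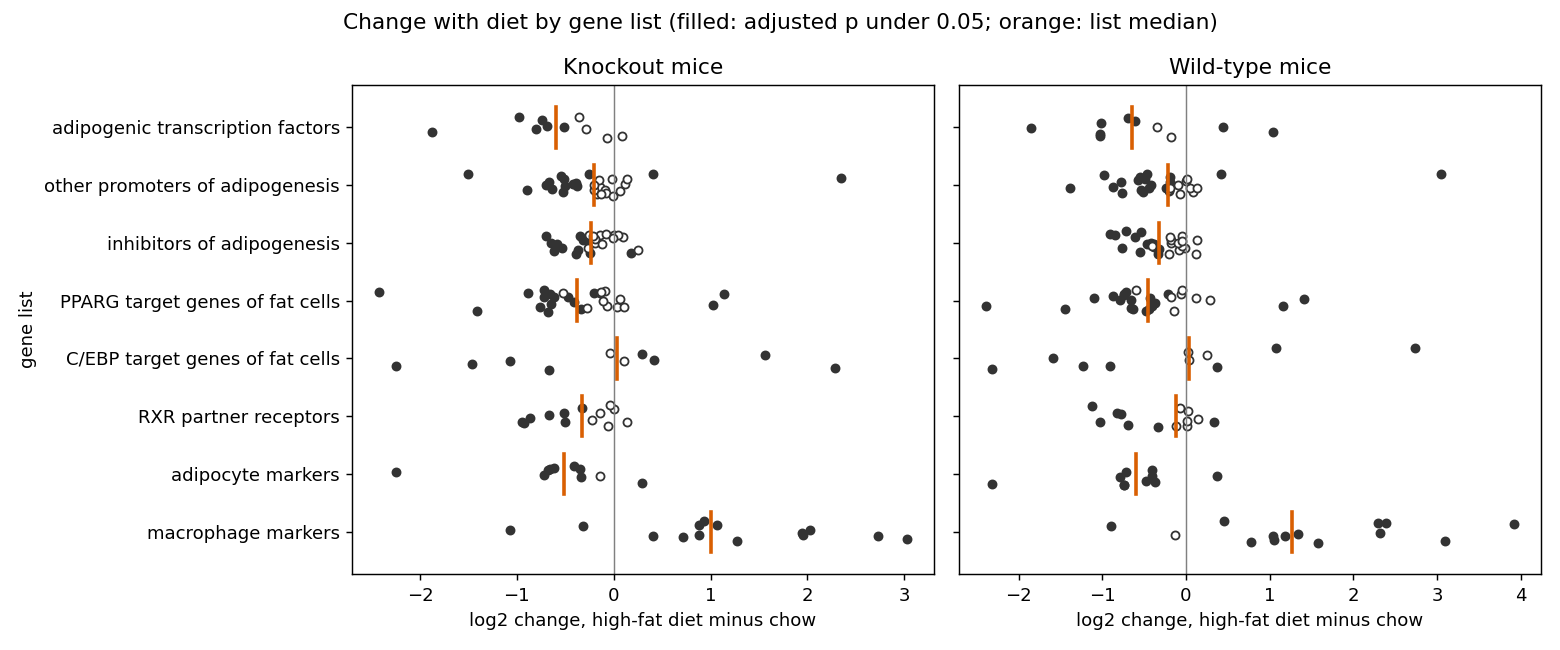
Log2 change on high-fat diet relative to chow (horizontal axis) of each measured gene, by gene list, in knockout and in wild-type mice. Filled points had a limma adjusted p under 0.05 and orange bars are list medians. Adipogenic factors lie mostly left of 0, with medians of -0.60 in knockout and -0.65 in wild-type mice, and macrophage markers to the right, with medians of 1.00 in knockout and 1.26 in wild-type mice.

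The genes most like each factor over the 13 arrays were found by the root mean square difference of log2 values, each gene centred on its own mean. For Pparg these were Smim10l1, Crebrf and Rbms2, at 0.0644 to 0.0704, while Pparg itself varied by 0.316 about its mean. Rhbdd2, Tead4 and Pxmp4 lay nearest to Rxra, at 0.0512 to 0.059, against 0.342. Tmem8b, the phosphoglucomutase gene Pgm1 and Bckdha, a subunit of the branched-chain keto acid dehydrogenase, were nearest to Cebpa, at 0.0807 to 0.0972 against 0.519. Nearest to Klf15, at 0.15 to 0.182 against 0.953, were the mitochondrial carrier gene Slc25a23, the short-chain acyl-CoA synthetase gene Acss3 and Nrbp2. Ebf1 had Nfia, Peli2 and Hddc3 nearest, at 0.0705 to 0.0838 against 0.463, and Ebf2 had Taf9b, Nupr1l and Peli3, at 0.0762 to 0.116 against 0.458. Abcd4, Dhx38 and Atp13a1 were nearest to Cebpb, at 0.0619 to 0.0623 against 0.173. The genes nearest to Bcl6, Sgms2, Cybc1 and Tnfaip6, stood at 0.219 to 0.237 against 0.441. Among the 10 genes, Ebf1 and Ebf2 differed by 0.14 and Cebpa and Ebf1 by 0.162. These values describe 13 arrays that share tissue and normalisation and differ in diet.

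The comparison of genotypes asks whether loss of P2X7 altered these factors. On chow, 1 of the 10 genes passed, Bcl6, which was higher in knockout mice, and the median change was 0.08 against 0.02 over all genes. Limma called 0.133% of all genes in this comparison, 25 genes, with 0.0478% of all genes higher and 0.085% lower. Bcl6 read 9.19, 8.93 and 8.53 in knockout mice on chow, against 7.66, 7.97 and 8.16 in wild-type mice on chow, so every knockout array was higher. The difference was 0.95 ± 0.15 (1.94-fold, 95% interval 0.63 to 1.27, limma adjusted p = 0.0364), the 18th largest of 10965 positive differences.

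The Bcl6 call was not stable. Its adjusted p was 0.153 with only the chow groups in the fit, 0.0541 with all probe sets tested and 0.124 with the replicate number as a block. With the liver marker score as a covariate the difference was 0.83 with an adjusted p of 0.294, and with the score less Cyp2e1, a setting chosen after seeing the data, 0.81 with an adjusted p of 0.328. When each array was left out in turn, the difference ran from 0.80 to 1.13 and passed in 6 of 13 fits. It did not pass without wild-type chow replicate 1 or 2, knockout chow replicate 1 or 2, or knockout high-fat replicate 2, 3 or 4. The liver markers were lower in knockout chow arrays, with a median difference of -1.86 over 15 genes of which 0 were called. Their score did not overlap between the chow groups, so these covariates cannot be told apart from genotype. With either covariate 0 of all genes were called on chow. The part of the liver markers in the Bcl6 difference was therefore not tested.

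Genes of the circadian clock, looked at after the values were seen because the Bcl6 and Klf15 windows hold CACGTG, are given as values beside Bcl6. Of 12 measured, 1 was called lower between genotypes on chow, 0 were called higher and 11 did not pass. With diet, 2 were called higher and 7 lower in knockout mice, and 2 higher and 9 lower in wild-type mice. Over all genes 14.5% were higher and 19.7% lower with diet in knockout mice, and 17.7% higher and 18.1% lower in wild-type mice. Ciart, a clock repressor, read 6.84 to 7.44 in knockout mice on chow, against 8.12 to 8.57 in wild-type mice on chow. It was lower by 1.09 ± 0.19 in knockout mice (limma adjusted p = 0.0476). With the liver score as covariate the difference was -1.45 and did not pass (adjusted p = 0.124), in a fit that called 0 of all genes on chow. Arntl, which encodes the activator BMAL1, read 6.27 to 6.39 in knockout and 5.48 to 5.93 in wild-type mice, a difference of 0.57 ± 0.16 (adjusted p = 0.272). Per3 read 8.77 to 8.97 in knockout and 9.27 to 9.50 in wild-type mice, a difference of -0.49 ± 0.14 (adjusted p = 0.28). The differences of Per1, Per2 and Cry2 were -0.23 ± 0.18, 0.04 ± 0.18 and -0.04 ± 0.11, with adjusted p-values of 0.711, 0.964 and 0.949. Npas2 and Clock were higher, and Tef and Hlf lower, on every knockout chow array, without passing the test. Per1, Per2, Cry1, Cry2 and Nr1d2 overlapped between the genotypes on chow. In that comparison 9.3% of all genes were higher and 5.64% lower without overlap. No source used here gives the time of day at which tissue was taken. Its part in the Bcl6 difference was not tested.

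The other 9 genes did not pass between genotypes on chow. The 95% interval was -0.23 to 0.15 for Pparg, -0.16 to 0.27 for Rxra, -0.38 to 0.11 for Cebpa, -0.22 to 0.10 for Ebf1 and -0.40 to 0.08 for Ebf2. It was wider for Klf15, at -0.22 to 0.56, Zfp423, at -0.23 to 0.43, and Cebpd, at -0.12 to 0.76, and -0.05 to 0.31 for Cebpb. Cebpa arrays of knockout mice were all lower and Cebpb arrays all higher than those of wild-type mice, without passing the test, in a comparison in which 5.64% of all genes were lower and 9.3% higher without overlap. These intervals allow differences up to their bounds and do not show that the genotypes were alike.

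On high-fat diet 0 of the 10 genes passed between knockout and wild-type mice, and 0.0425% of all genes did. Cebpb and Ebf1 had the smallest p-values of the 10 before adjustment. Cebpb read 7.92, 7.84, 7.84 and 7.84 in knockout mice fed the high-fat diet, against 8.21, 8.16 and 7.86 in wild-type mice fed the high-fat diet, a difference of -0.22 ± 0.08 (limma adjusted p = 0.63). Ebf1 was higher on every knockout array, with a difference of 0.17 ± 0.07 (adjusted p = 0.644). Bcl6 was lower on every knockout array, by 0.15 ± 0.14 (adjusted p = 0.856). Here 2.41% of all genes were higher and 4.27% lower without overlap. The interval for Pparg was -0.04 to 0.32 and that for Klf15 was -0.22 to 0.52.

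**Figure D5:**
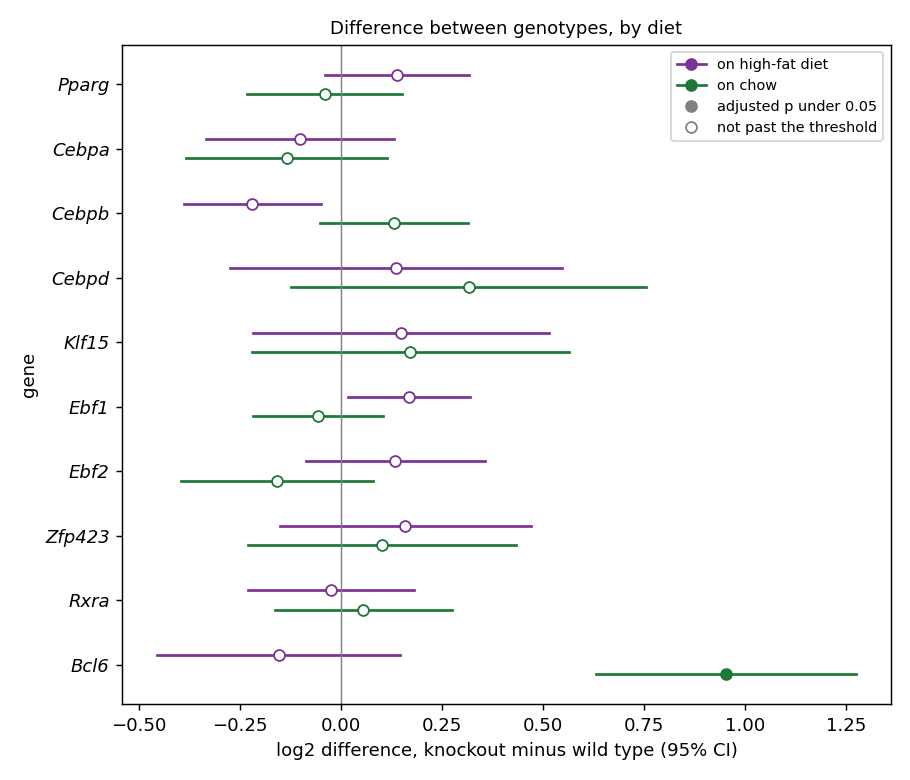
Log2 difference between knockout and wild-type mice (horizontal axis) for each of the 10 genes, on high-fat diet and on chow. Points are limma estimates, bars are 95% confidence intervals and filled points had an adjusted p under 0.05. Bcl6 on chow, at 0.95, is the only filled point.

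The diet response itself was compared between genotypes by the interaction, the change with diet in knockout mice minus that in wild-type mice. No gene of the 10 passed and 0% of all 18820 genes did. The largest interaction was that of Bcl6, at -1.11 ± 0.20 (unadjusted p = 0.000114, limma adjusted p = 0.179), the 29th largest of 11019 negative ones. It shares its chow arrays with the genotype difference on chow. For Cebpb it was -0.35 ± 0.12 (unadjusted p = 0.00956, adjusted p = 0.382), and for Ebf1 0.22 ± 0.10 (unadjusted p = 0.047, adjusted p = 0.504). That Cebpb and Bcl6 passed with diet in wild-type and not in knockout mice was therefore not shown to be a difference between the genotypes. Interactions of Klf15 and Cebpa were -0.02 ± 0.25 and 0.03 ± 0.16, with 95% intervals of -0.56 to 0.51 and -0.31 to 0.37. In the further lists by role 0 genes passed in any comparison of genotypes or in the interaction. The clock genes are not among these lists, and of them Ciart was called lower in knockout mice on chow.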

How the data were processed

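The deposited values are log2 expression values of 35556 probe sets on 13 arrays, made by the authors with RMA per the submitters' processing notes; its version, and the genome build, are not given in the sources used here. The values were used without renormalising. Single symbols were carried by 21218 probe sets, several by 1881 and none by 12457; the single-symbol ones gave 18820 genes, the probe set with the highest mean standing for a gene, and 18790 of them matched RefSeq (GRCm38.p6) by Entrez ID.

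With limma 3.58.1 (R 4.3.3; package data.table, version 1.17.8), the 13 arrays were fitted together with 1 mean per group (4 groups) and eBayes used its intensity trend. Contrasts were diet in each genotype, genotype on each diet and the interaction. Adjusted p-values are limma's with Benjamini-Hochberg adjustment over all genes of a contrast, called under 0.05, and a plus-minus sign gives the SE. The number of arrays limits the precision. The steps were tested on simulated data.

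The 10 genes and all lists were chosen with earlier results of these data known. The 10 are always named; from each further list up to 4 genes with the smallest p for diet in wild-type mice among those called were named, or 2 where none was called. For each of the 10 called there, the 3 nearest genes outside the 10 were named. The 6 further lists and 11 marker lists held 245 entries, 25 of them not measured. Ncoa3, Zfp521, Cd163, Mertk, Pdk4, Fabp5 and the clock genes lie outside the rule. Alternatives changed the variance model, scaling, dim genes, probe sets, array weights, groups fitted, minimum fold, a block and a liver covariate, and left out each array. Figures used Python 3.11.15, matplotlib 3.10.9, numpy 2.4.6 and pandas 2.3.3.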

Additional observations from a re-analysis of the deposited data

Results flagged for a closer look

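A sample far from the others was sought in the group of 4 arrays, knockout mice fed the high-fat diet, and found for 1 of the 10 genes. Groups of 3 arrays were not searched. Cebpb read 7.92 on 1 array of that group while the other 3 read 7.84, and the gap made up 0.951 of the group's range. The threshold used for such gaps is one that chance passes in about 1 of 20 groups, and this gap lies beyond it. The whole range of that group was small, and Cebpb in knockout mice passed in no comparison.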

How the results depend on the processing

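For single genes, 1179 of the results under alternatives kept direction and call, 6 gained a call, 14 lost one and 36 turned in sign. The number of the 10 genes called for diet stayed between 5 and 7 in knockout mice (6 as reported) and between 7 and 9 in wild-type mice (8 as reported), and was 6 to 7 in knockout and 8 to 9 in wild-type mice when each array was left out. For genotype on chow it was 0 instead of 1 with only the groups compared, with all probe sets in the fit, with the replicate block and with either liver score as covariate, and 0 to 1 without each array. With array weights Zfp423 passed with diet in knockout mice (-0.30, adjusted p = 0.0468) and in wild-type mice (-0.43, adjusted p = 0.0311). At a minimum of 1.5-fold, Pparg in knockout mice and Cebpb in wild-type mice were not called. With the liver score as covariate, sign turned for Zfp423 with diet in wild-type mice (0.010), for Pparg (0.057) and Cebpa (0.13) between genotypes on chow, for Rxra between genotypes on high-fat diet (0.044) and in the interactions of Cebpa (-0.14) and Zfp423 (-0.24). With the score less Cyp2e1, added after seeing the data, the turned values were 0.071 for Pparg, 0.14 for Cebpa, 0.044 for Rxra, and -0.16 and -0.27 in the interactions of Cebpa and Zfp423, and Zfp423 passed with diet in knockout mice (-0.29, adjusted p = 0.0452). Array weights turned Rxra on high-fat diet (0.015) and the Klf15 interaction (0.071), which was 0.0071 with arrays centred on their medians and 0.036 with the replicate block. None of these was called in either form. Leaving out arrays turned the sign in these ranges: Bcl6 with diet in knockout mice (-0.24 to 0.090), Klf15 (-0.0075 to 0.34), Cebpa (-0.19 to 0.024) and Rxra (-0.11 to 0.085) between genotypes on high-fat diet, and the interactions of Klf15 (-0.18 to 0.17), Cebpa (-0.058 to 0.16), Zfp423 (-0.059 to 0.27), Rxra (-0.16 to 0.031) and Cebpd (-0.48 to 0.0038). The Bcl6 interaction had an adjusted p of 0.0558 to 0.40 there. The cause was not tested.

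Same-numbered samples showed no steady pairing: their deviations correlated at -0.298 to 0.222, and over 0.1 in 6 of 18 pairs. These correlations were set against no reference, so a weak pairing of some samples was not settled. With that block 6 of the 10 genes were called for diet in knockout and 8 in wild-type mice. Calls over all genes for diet were 6429 in knockout and 6736 in wild-type mice, against 2474 in knockout and 3027 in wild-type mice at 1.5-fold, and 4266 in wild-type mice with the liver covariate. For genotype on chow they were 25, against 11 with all probe sets, 6 with the block, 0 with the liver covariate and 2 to 44 without each array. On high-fat diet they were 8, against 2 with only the groups compared, 0 with the block and 6 to 177 without each array. The interaction had 0, against 2 without the intensity trend, 1 with array weights and 0 to 106 without each array. Centring on medians moved the share of higher genes among calls in wild-type mice to 38.5%, from 49.4%. The filter on dim genes left out Cebpd, and the fit of only the groups compared was not run for the interaction. With 3 or 4 arrays a group, a gene that did not pass may still differ by any amount inside its printed interval.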
